A study of Mus musculus with 4 samples.

Results

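The genes described here encode the signalling machinery of the T cell receptor. They are 30 listed genes, of which 26 had at least 1 probe set that the platform annotation assigns to that symbol alone, out of 12393 genes named in this way on the arrays. Where a gene had several such probe sets, the one with the highest mean log2 signal was used. Lck, Malt1, Ubash3a and Cblb were not analysed here. The T cell receptor binds peptide and MHC but cannot signal by itself. The CD3 and zeta chains carry tyrosine motifs that the kinase LCK phosphorylates, ZAP-70 docks on them and phosphorylates the adaptors LAT and SLP-76, and these gather PLC-gamma1, VAV1 and TEC family kinases, from which calcium, Ras and NF-kB signals run to the nucleus. Costimulatory and inhibitory molecules such as CD28, CD5, PEP and CBL set how strongly a cell responds. Naive T cells carry much of this machinery before they meet antigen.

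Signals came from 4 Affymetrix MOE430A_2.0 arrays of mouse spleen T cells of the C57Bl/6 strain, separated by flow cytometry after antibody staining for CD44 and both coreceptors. The 4 groups are CD4+ CD44lo and CD8+ CD44lo cells from untreated Gfi1 knockout mice and the same subsets from wildtype mice, and the sources used here give neither the age of the animals nor how the knockout was made. Gfi1 encodes a zinc finger protein that represses transcription in blood cells, and the stated aim was to compare the transcriptomes of naive T cells with and without it. Each group has 1 array with pooled RNA of 2 mice, so that animals cannot be compared with each other and the small number of arrays limits every value's precision. Values are linear signals per probe set, and any signal under a floor of 93.9 was set to that floor, which is the 40th percentile of the values left after removing controls. Median signals ran from 189 to 235 over the 4 arrays.

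The subset labels matched their markers, but CD44 did not match its label. Cd4 read 5470 and 5901 on the knockout and wildtype CD4 arrays, while the CD8 arrays were both below the floor. Cd8a read 16639 and 15920 on the CD8 arrays, with the CD4 arrays below the floor, and Cd8b1 read 25715 and 26222 on the former and 971 and 312 on the latter. Cd44 read 196 and 252 on the arrays labelled knockout (CD4, CD8) but 8136 and 5740 on those labelled wildtype, although the description of each sample says CD44lo. The titles of both knockout samples end in the letter N and those of both wildtype samples in M, and the labels do not say what the letters stand for. Gfi1 itself read 2891 and 2447 on the arrays labelled knockout against 2272 and 1158 on those labelled wildtype, and the sources used here do not say whether its probe set lies in the deleted part. Genotype is therefore written as labelled, and it cannot be told apart from this difference in Cd44 or from the letters in the titles.

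Of the 26 genes, 25 exceeded the floor on every array. Most of these differed little between the labelled genotypes within a subset, but the share that did so was smaller than among all genes. Between the labelled genotypes, 18 of 25 genes (72.0%) lay within 1.5-fold in CD4 cells and 19 (76.0%) in CD8 cells, against 80.2% and 89.4% of the 6882 genes that exceeded the floor on every array. Only Tec was at least 2-fold higher and only Nfatc1 at least 2-fold lower on the array labelled knockout CD4, where 1.95% and 5.09% of all these genes were that far apart. In CD8 cells Trat1 was at least 2-fold higher and no gene was that much lower, against 0.988% and 2.34% of all genes. The median log2 difference of the 25 genes was 0.05 in CD4 and -0.07 in CD8 cells, beside 0.01 and 0.00 over all genes. Plcg1, which encodes the phospholipase that makes the second messengers of the pathway, read between 5.0 and 46.3 and so lay below the floor on all arrays, and no fold is given for it.

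**Figure D1:**
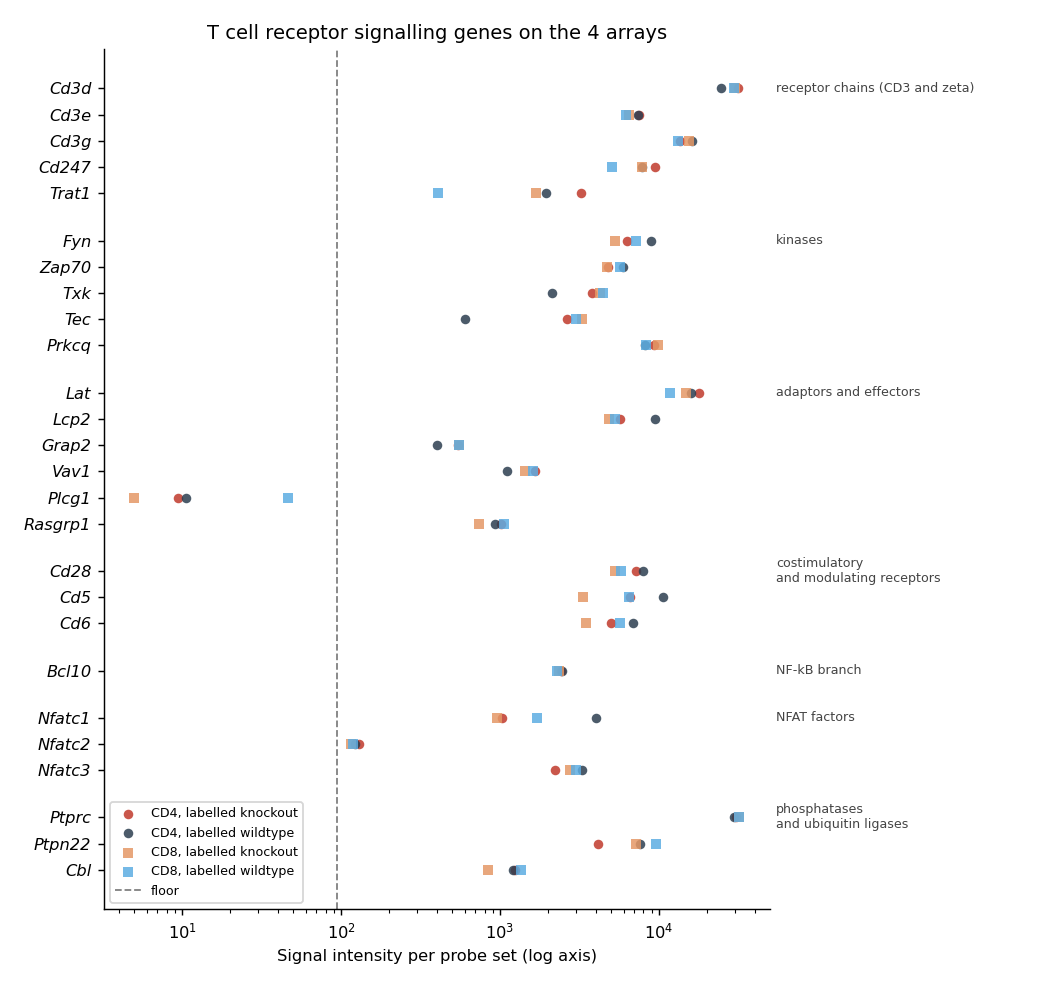
Signal intensity of the 26 genes (log axis), 1 point per array and gene, ordered by role, with the floor of 93.9 as a dashed line. Tec and Txk are lowest on the array labelled wildtype CD4, Trat1 is lowest on wildtype CD8, and Plcg1 is below the floor on all 4.

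Limma, fitted to 8596 genes with subset and genotype label as terms, called 0 of 25 genes for the genotype label at an adjusted p under 0.05, and 9 had an unadjusted p under 0.05. Over all genes it called 0.0814% as higher and 0.465% as lower on the arrays labelled knockout, and 13.1% had an unadjusted p under 0.05. With 1 residual degree of freedom the error of this fit is the disagreement between the subsets joined with the spread of other genes of like signal, and it holds no spread between animals. The smallest adjusted values were those of Cd5 (0.0806), Nfatc1 (0.103), Cd6 (0.134), Trat1 (0.135) and Ptpn22 (0.148). Whether limma called Cd5, Nfatc1 and Trat1 depended on the filter: when the fit held only the 6882 genes over the floor everywhere, the adjusted p was 0.0187 for Cd5, 0.02 for Nfatc1 and 0.0304 for Trat1, and 2.92% of all genes were called against 0.547%. Over 10 alternative settings the adjusted p of Cd5 ran from 0.00125 to 0.845.

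The CD3 chains, the invariant signalling subunits of the receptor, were near level. Cd3e read 7468 on the array labelled knockout CD4, 7371 on wildtype CD4, 6451 on knockout CD8 and 6193 on wildtype CD8, and its log2 differences between the labelled genotypes were 0.02 in CD4 and 0.06 in CD8 cells. Cd3d read 31670, 24653, 30068 and 29803 in the same order, with log2 differences of 0.36 and 0.01. Cd3g read 13610, 16200, 15399 and 13186, so that its small differences had opposite signs, -0.25 in CD4 and 0.22 in CD8 cells. The array labelled wildtype CD4 thus read lowest for Cd3d and highest for Cd3g. The 3 genes lie next to each other on chromosome 9 in the RefSeq order of genes.

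Cd247, which encodes the zeta chain with most of the receptor's tyrosine motifs, read higher on the arrays labelled knockout. Its signals were 9495 on knockout CD4 and 7856 on wildtype CD4, and 7824 on knockout CD8 and 5040 on wildtype CD8. The log2 differences were 0.27 and 0.63 (adjusted p = 0.246 by limma). Both of its further probe sets that exceeded the floor everywhere had the same sign, at 0.71 and 0.39 in CD4 and at 0.80 and 0.18 in CD8 cells.

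Trat1 encodes TRIM, a transmembrane adaptor that binds the receptor complex and the zeta chain. It read 3224 on knockout CD4, 1959 on wildtype CD4, 1684 on knockout CD8 and 405 on wildtype CD8. The array labelled wildtype CD8 stood apart on the low side, and both CD4 arrays read above the CD8 array of the same label. The array labelled knockout was 1.65-fold higher in CD4 and 4.16-fold higher in CD8 cells, with a fitted log2 difference of 1.39 ± 0.31 (SE) and an adjusted p of 0.135 by limma, higher in 2 of 2 subsets. Trat1 has 1 probe set, so no further one could be compared.

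The array labelled wildtype CD8 also had signal of some genes listed as markers of other cell types. The summed signal of 9 dendritic cell and macrophage genes (8 of them above the floor on some array) was 17603 there, while the other arrays had 3558 to 4062. That of 5 natural killer cell genes (4 above the floor on some array) was 6989 there and between 387 and 712 elsewhere. Without Cst3, the brightest of the first list, its sum was 2447 there and 393 to 653 elsewhere. Itgax, Flt3, Xcr1, Batf3 and Lyz2 of that list were also highest there (1002.5, 287, 249.9, 311.7 and 285). The list did not move as a whole: Csf1r read 238 there and 193 to 202 elsewhere, and Adgre1 and Cd14 were below the floor there. Most of the second sum was Gzma, which cytotoxic T cells also express and which read 5633 there and 102.8 to 621 elsewhere. Without Gzma the sum was 1356 there and 61.6 to 527 elsewhere, and Ncr1, the most restricted to natural killer cells, was below the floor on all arrays. Fcer1g was level between wildtype CD8 and wildtype CD4, at 250.8 and 248.4. Tyrobp read 882.9 on wildtype CD8 and 10.3 to 238.5 elsewhere. Klra8 read 220.6 on wildtype CD8 and was below the floor elsewhere. Of 10 B cell genes 6 were below the floor everywhere. Their sum was mostly Ighm (10871 on wildtype CD8 and 12666 to 16664 elsewhere), and without Ighm it was 1839 on wildtype CD8, 1775 on wildtype CD4, 1021 on knockout CD8 and 345 on knockout CD4. Of 7 granulocyte genes 6, and of 4 erythroid genes 4, lay below the floor everywhere. The part of these cells in the low Trat1 signal was not tested. In such pooled RNA, fewer cells of a type and less RNA per cell cannot be told apart.

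Among the kinases, Tec and Txk were low on a single array. Both encode TEC family tyrosine kinases, which activate PLC-gamma1 once the adaptors have gathered it. Tec read 606 on the array labelled wildtype CD4, against 2634 on knockout CD4, 3298 on knockout CD8 and 3010 on wildtype CD8. It was therefore 4.35-fold higher on the array labelled knockout in CD4 cells and 1.10-fold in CD8 cells (adjusted p = 0.336 by limma). Txk, also known as resting lymphocyte kinase, read 2124 on wildtype CD4 and 3811, 4240 and 4444 on knockout CD4, knockout CD8 and wildtype CD8. Its log2 difference was 0.84 for the CD4 arrays and -0.07 for the CD8 arrays (adjusted p = 0.523). The latter turned to 0.15 with arrays centred on their medians. The difference between the subsets in the size of the genotype-label difference (CD8 minus CD4) was -1.99 for Tec and -0.91 for Txk, which cannot be tested with 1 array per group.

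Tec and Txk are neighbours on chromosome 5, with no other protein-coding gene between them in RefSeq. Their promoter windows, 250 bases before to 50 after the start of the gene, are shown because both genes read low on the same array, with those of Trat1 and Cd5, which differed in both subsets in opposite directions. The sequences are RefSeq's on GRCm38.p6, all from the minus strand: Tec at chr5:72868399-72868698, Txk at chr5:72752728-72753027 (the first of 2 windows listed), Trat1 at chr16:48772013-48772312 and Cd5 at chr19:10738925-10739224. Capitals mark AATC on either strand (AATC or GATT), the core that Gfi1 family proteins recognise.
Tec: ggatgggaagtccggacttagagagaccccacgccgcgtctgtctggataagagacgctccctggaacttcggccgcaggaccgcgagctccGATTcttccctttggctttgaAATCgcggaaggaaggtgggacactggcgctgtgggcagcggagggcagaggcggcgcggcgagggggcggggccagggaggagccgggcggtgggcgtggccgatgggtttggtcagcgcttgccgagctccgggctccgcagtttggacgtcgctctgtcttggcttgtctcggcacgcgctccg
Txk: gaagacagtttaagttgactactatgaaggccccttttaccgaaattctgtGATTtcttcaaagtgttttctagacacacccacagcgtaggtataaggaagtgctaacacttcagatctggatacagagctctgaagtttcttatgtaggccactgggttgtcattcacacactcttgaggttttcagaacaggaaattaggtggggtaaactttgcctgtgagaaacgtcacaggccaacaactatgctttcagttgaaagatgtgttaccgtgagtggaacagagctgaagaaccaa
Trat1: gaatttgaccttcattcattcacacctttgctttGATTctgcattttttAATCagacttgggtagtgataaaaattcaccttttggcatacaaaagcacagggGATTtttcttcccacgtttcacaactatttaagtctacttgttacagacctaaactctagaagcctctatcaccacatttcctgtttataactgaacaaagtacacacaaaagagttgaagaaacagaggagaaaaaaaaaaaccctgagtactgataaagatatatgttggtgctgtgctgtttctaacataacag
Cd5: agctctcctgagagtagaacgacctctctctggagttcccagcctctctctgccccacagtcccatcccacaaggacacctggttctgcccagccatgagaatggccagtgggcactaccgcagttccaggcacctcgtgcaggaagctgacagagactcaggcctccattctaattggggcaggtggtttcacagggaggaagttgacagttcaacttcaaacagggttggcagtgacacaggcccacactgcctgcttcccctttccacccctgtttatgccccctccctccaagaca
The motif was found at 2 places in the Tec window, 1 in Txk, 3 in Trat1 and 0 in Cd5. It was present in 73.1% of 32851 windows of this length, and in 16 of the 23 genes of the list with a window, so its presence separates few genes. TGTGGT on either strand (TGTGGT or ACCACA), the core bound by Runx factors of T cells, was found once in the Trat1 window, in none of the other 3, and in 2 of the 23 genes, against 16.8% of all windows. The motifs did not overlap in these windows. A match is a run of letters and not evidence of binding.

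The other kinases differed less. Fyn, a SRC family kinase that acts beside LCK, read 6304 on knockout CD4 and 8981 on wildtype CD4, and 5273 on knockout CD8 and 7164 on wildtype CD8. Both arrays labelled wildtype read above both labelled knockout, with log2 differences of -0.51 and -0.44 (adjusted p = 0.175). Zap70 showed the same order at smaller size, with 4804 and 4744 on the arrays labelled knockout and 5927 and 5731 on those labelled wildtype. Its log2 differences were -0.30 and -0.27, and -0.82 and -0.72 at its dimmer probe set. The CD4 value of the brighter one was 0.01 with arrays centred on their medians. Prkcq, which encodes the protein kinase C isoform that links the receptor to NF-kB, was slightly higher under the knockout label, by 0.19 in CD4 and 0.24 in CD8 cells on the log2 scale.

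The adaptors and exchange factors lay within 1.5-fold in CD8 cells, all 5 of them, and Lcp2 was further apart in CD4 cells. Lat, the membrane scaffold, read 17820 and 15958 on the CD4 arrays labelled knockout and wildtype and 14893 and 11762 on the CD8 arrays, with log2 differences of 0.16 and 0.34. Lcp2, which encodes SLP-76, was highest on wildtype CD4 at 9483, against 5731 on knockout CD4, 4876 on knockout CD8 and 5313 on wildtype CD8. Its log2 differences were -0.73 for the CD4 arrays and -0.12 for the CD8 arrays (adjusted p = 0.375), and its dimmer probe set gave -1.33 and -0.22. The array labelled wildtype CD4 was thus highest for Lcp2 where it was lowest for Tec and Txk. Vav1, a guanine nucleotide exchange factor for Rac, differed by 0.57 in CD4 and -0.17 in CD8 cells. Rasgrp1, which loads Ras with GTP, differed by 0.12 and -0.52.

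Grap2, which encodes the SLP-76 partner GADS, depended on the probe set. The brighter one read 546 on knockout CD4, 404 on wildtype CD4, 552 on knockout CD8 and 553 on wildtype CD8, so that the CD8 arrays were level. The dimmer one gave 287, 135, 318 and 103 in the same order, with log2 differences of 1.09 and 1.63. Its signals on the arrays labelled wildtype lie near the floor, and those on the arrays labelled knockout lie further above it. Which probe set follows the gene was not tested.

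The receptors that modulate the signal read lower on the arrays labelled knockout in both subsets. Cd5, an inhibitory receptor whose surface level in T cells follows the strength of signals from self peptides, read 6550 on knockout CD4, 10583 on wildtype CD4, 3349 on knockout CD8 and 6496 on wildtype CD8. Within each subset the array labelled wildtype was higher, and within each label the CD4 array was higher. Under the knockout label Cd5 was lower by 1.62-fold in CD4 and by 1.94-fold in CD8 cells, a fitted log2 difference of -0.82 ± 0.13 (SE; adjusted p = 0.0806 by limma, lower in 2 of 2 subsets). Cd6, its neighbour on chromosome 19 and a related scavenger receptor, read 4999, 6849, 3475 and 5694 in the same order. Its log2 differences were -0.45 and -0.71 (adjusted p = 0.134). Cd28, the main costimulatory receptor, was nearer to level, at -0.15 and -0.13, and both values turned positive with arrays centred on their medians (0.16 and 0.08).

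Nfatc1 differed most among the transcription factors. It encodes a calcium-dependent factor whose own gene is induced in activated lymphocytes. It read 1025 on knockout CD4, 4035 on wildtype CD4, 957 on knockout CD8 and 1698 on wildtype CD8. The arrays labelled knockout were alike and both lay below those labelled wildtype, of which CD4 was the higher. Under the knockout label it was lower by 3.94-fold in CD4 and by 1.77-fold in CD8 cells, a fitted log2 difference of -1.40 ± 0.28 (SE; adjusted p = 0.103 by limma, lower in 2 of 2 subsets). Its second probe set gave log2 differences of -2.00 and -0.88, close to the -1.98 and -0.83 of the first. Nfatc3 was lower on knockout CD4 (-0.56) and nearly level in CD8 cells (-0.13), and its second probe set gave -0.81 and -0.97. Nfatc2 read between 116 and 130 on all arrays, just above the floor, so a difference was not measurable.

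The remaining genes encode the NF-kB adaptor, phosphatases and a ubiquitin ligase. Bcl10, an adaptor that carries the receptor signal to NF-kB, read between 2301 and 2453 on all 4 arrays. Ptprc, which encodes the phosphatase CD45, read between 29718 and 32076. Between the labelled genotypes their log2 differences were at most 0.05 in size. Ptpn22, which encodes the phosphatase PEP that dephosphorylates LCK and ZAP-70, read 4124 on knockout CD4, 7584 on wildtype CD4, 7211 on knockout CD8 and 9649 on wildtype CD8. It was lower on the array labelled knockout in both subsets, at -0.88 and -0.42 (adjusted p = 0.148), and higher in CD8 than in CD4 cells under both labels. Cbl, a ubiquitin ligase that removes active receptors and kinases, was lowest on knockout CD8 at 838, against 1246 on knockout CD4, 1203 on wildtype CD4 and 1359 on wildtype CD8. Its log2 differences were 0.05 and -0.70, and its dimmer probe set gave -0.55 and -0.72.

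**Figure D2:**
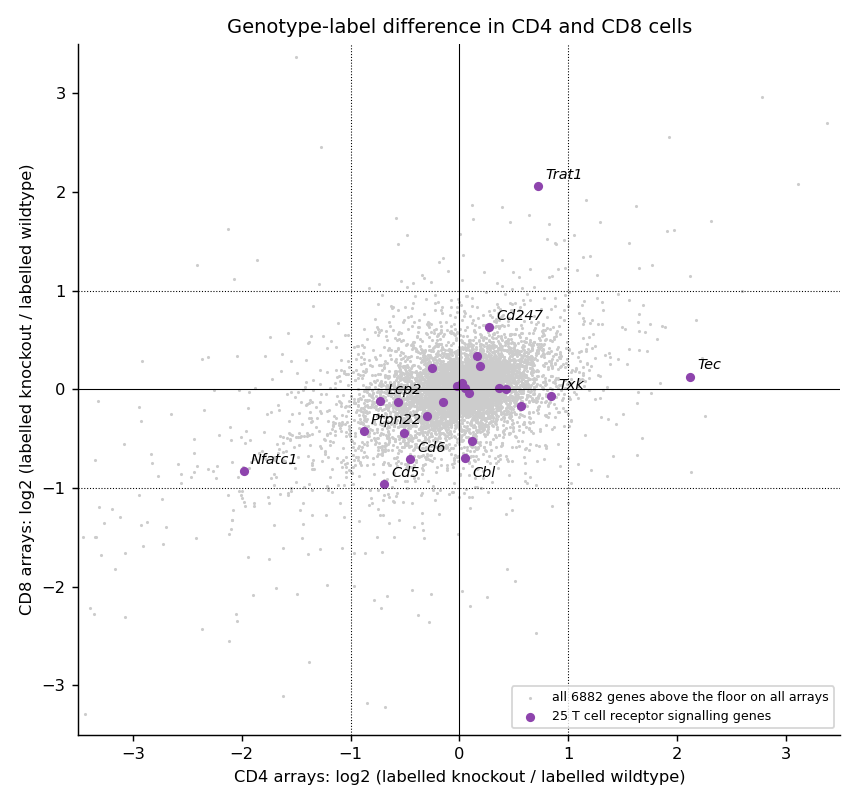
Log2 ratio of the array labelled knockout over that labelled wildtype, in CD4 cells (x axis) and CD8 cells (y axis), for 25 T cell receptor signalling genes (purple) and all 6882 genes over the floor everywhere (grey, 22 of them outside the axes). Dotted lines mark 2-fold. Tec lies far to the right near the zero line of the CD8 axis, Trat1 at the top, and Nfatc1 to the lower left.

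Across the 25 genes, 8 were higher and 9 lower on the arrays labelled knockout in both subsets, and 8 differed in sign. These shares of 32%, 36% and 32% lie near the 31.1%, 29.7% and 39.2% of all genes, so the split is no result about these genes. The sign held in both subsets under 7 other settings for 6 of the higher genes (Cd3d, Cd247, Trat1, Tec, Prkcq and Lat) and for 5 of the lower ones (Fyn, Cd5, Cd6, Nfatc1 and Ptpn22). The others that were lower in both subsets but changed sign under some setting were Zap70, Lcp2, Cd28 and Nfatc3.

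CD8 cells were set against CD4 cells under each label, in comparisons that share their arrays with those above. On the arrays labelled wildtype, 4 of 25 genes were at least 2-fold apart: Tec (log2 2.31) and Txk (1.07) were higher in CD8 cells, and Trat1 (-2.27) and Nfatc1 (-1.25) lower. Over all genes 2.37% were higher and 3.27% lower by that much. On the arrays labelled knockout, 0 of 25 were 2-fold apart, against 1.63% and 1% of all genes, and the values of those 4 genes were 0.32, 0.15, -0.94 and -0.10. Whether the subsets differ more under the wildtype label was not tested. Cd5 (-0.70 and -0.97 under the wildtype and knockout labels) and Cd28 (-0.47 and -0.44) read lower in CD8 cells under both, and Ptpn22 (0.35 and 0.81) higher. Limma called 0 of the 25 for the subset (10 at an unadjusted p under 0.05), against 0.174% of all genes as higher and 0.0698% as lower in CD8 cells and 9.56% at an unadjusted p under 0.05. Its smallest adjusted p was 0.107, for Cd5, which became 0.0219 in the fit to genes over the floor everywhere.

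**Figure D3:**
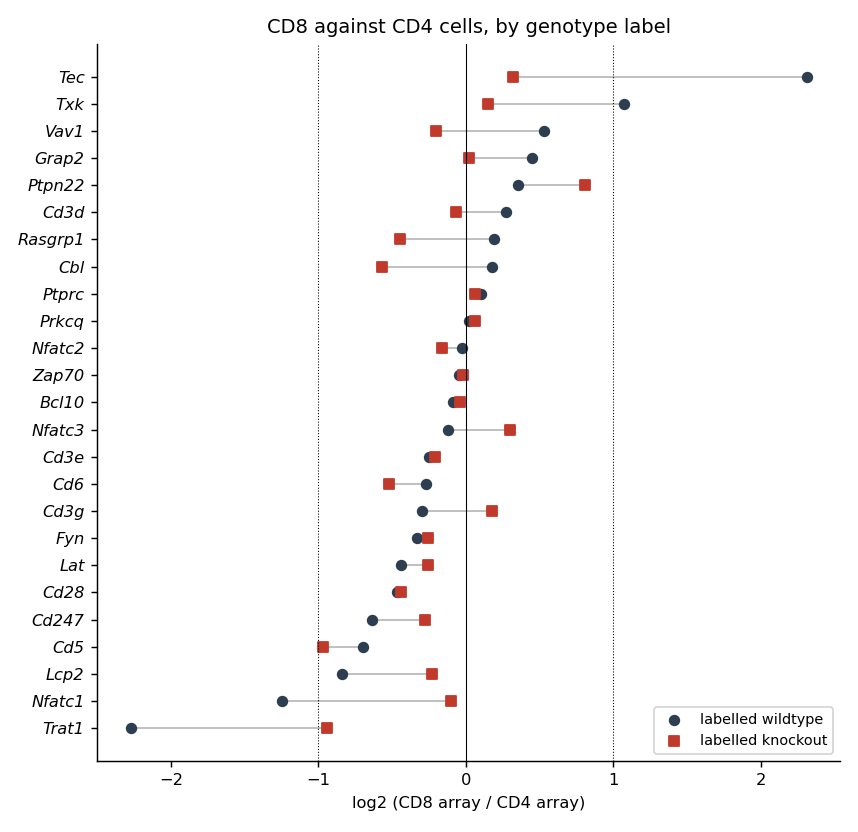
Log2 ratio of the CD8 array over the CD4 array for the 25 genes, under the wildtype label (dark circles) and the knockout label (red squares), with 2-fold as dotted lines. Tec, Txk, Trat1 and Nfatc1 lie beyond 2-fold under the wildtype label, and all genes lie within it under the knockout label.

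Of 112 further genes of the pathway, 89 could be named and 76 lay above the floor on all arrays. In CD4 cells 1 of the 76 was higher by 2-fold or more and 10 (13.2%) were lower by as much on the array labelled knockout, beside 1.95% and 5.09% of all genes. In CD8 cells these counts were 0 and 2 (2.63%), beside 0.988% and 2.34% of all genes, so that the lower share is at the background. With arrays centred on their medians 4 were higher and 7 lower in CD4 cells, beside 5.16% and 3.58% of all genes, and 0 and 0 in CD8 cells, beside 1.77% and 1.56%. The median log2 differences were -0.05 and -0.07. By branch, 2-fold lower genes in CD4 cells numbered 2 of 8 surface partners, 2 of 20 kinases and adaptors, 1 of 14 genes of the Ras and MAP kinase branch, 2 of 6 phosphatases and ligases and 3 of 9 genes induced by receptor signalling. None of 10 calcium genes or 9 NF-kB genes was 2-fold apart in either subset.

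Limma called 1 of these 89 genes for the genotype label, beside 0.547% of all genes. The call depends on the settings: limma called 0 of all genes without its intensity trend, and 0 with no filter on low signals. Sla encodes SLAP, an adaptor that lowers the amount of receptor at the surface, and fell on the arrays labelled knockout. It read 4509 and 4893 on knockout CD4 and CD8 and 10178 and 10050 on wildtype CD4 and CD8, log2 differences of -1.17 and -1.04 (adjusted p = 0.0313, lower in 2 of 2 subsets). Dusp6, an ERK phosphatase, read 678 and 772 against 2717 and 1622 (log2 -2.00 and -1.07; adjusted p = 0.0806). Spry1, an inhibitor of the Ras branch, was 5.88-fold lower in CD4 cells (176 against 1033) with 122 and 236 in CD8 cells (adjusted p = 0.166).

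Pdcd1, which encodes the inhibitory receptor PD-1, read 175 on knockout CD4 and 1966 on wildtype CD4, with 168 on wildtype CD8 and a signal below the floor on knockout CD8 (adjusted p = 0.203). Ctla4, which encodes an inhibitory receptor that competes with CD28, read 585 and 4490 on these CD4 arrays and 368 and 417 on the CD8 arrays (adjusted p = 0.344). Nedd4, a ubiquitin ligase, was 2.31-fold lower in CD8 cells (576 against 1330) and below the floor on knockout CD4, against 744 on wildtype CD4. Mapk8, which encodes the kinase JNK1, was higher on the arrays labelled knockout in both subsets (log2 0.92 and 0.74). Tnfaip3, an NF-kB inhibitor, was higher in CD4 cells only (0.94 in CD4, -0.11 in CD8). In CD8 cells Nras (0.40) and Rel (0.39) were higher, while in CD4 cells they differed by 0.06 and -0.66. None of these was called by limma.

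**Figure D4:**
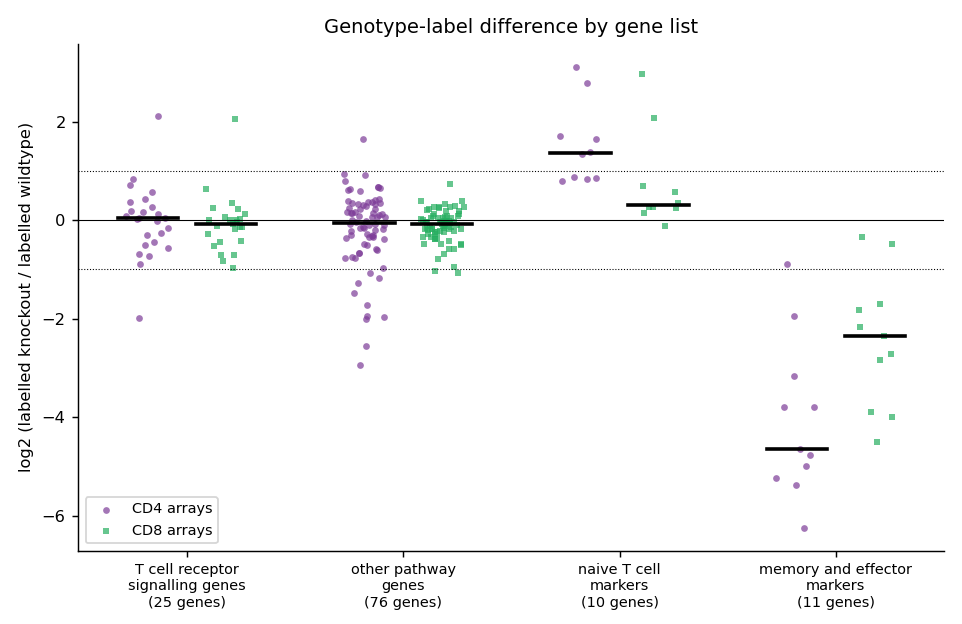
Log2 ratio of the array labelled knockout over that labelled wildtype by gene list, in CD4 (circles) and CD8 cells (squares), for genes above the floor on all 4 arrays, with the median as a bar. The T cell receptor signalling genes centre near 0, and the medians of the naive and memory markers lie on opposite sides of it. In CD8 cells the naive median is only 0.31, and the naive marker Klf2 is at -0.12.

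Markers of naive and of memory or effector T cells differed along with the genotype label. Of 10 naive genes 6 were at least 2-fold higher on the array labelled knockout CD4 and 2 on knockout CD8. Over all genes these shares were 1.95% and 0.988%. Their summed signal was 119092 on knockout CD4 and 47751 on wildtype CD4, and 101065 on knockout CD8 and 73092 on wildtype CD8. Of 20 memory and effector genes 11 lay above the floor on all arrays. Of these 11, 10 were at least 2-fold lower on knockout CD4 and 9 on knockout CD8, beside 5.09% and 2.34% of all genes. The 9 left out were below the floor on at least 1 array, and the sum over all 20 counts them too. This sum was 21215 and 130419 on knockout and wildtype CD4, and 49975 and 128843 on knockout and wildtype CD8. The difference in receptor signalling genes is smaller than in these markers, and the part of naive and memory cells in it was not tested. The marker lists were chosen with earlier results of these data known, so this contrast in size is no test.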

How the data were processed

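Per the labels' protocols, TRIzol was used for the RNA and biotin as the label. GCOS 1.4 and MAS5 are named in the submitters' processing notes, with no role or order. The authors deposited 1 linear intensity for each probe set, and from the values the 2% trimmed mean is 1000 on each array, so they appear scaled to a common level. Of 22690 probe sets, 64 controls were left out, 20380 had 1 gene symbol, 691 had several and 1555 were unnamed. The probe sets with 1 symbol gave 12393 genes, and 20351 of them were matched to RefSeq (GRCm38.p6).

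Signals were raised to the floor of 93.9, then log2 was taken, and differences of 2 arrays have no test. Limma 3.58.1 (R 4.3.3; lmFit, eBayes with trend, 5.11 prior degrees of freedom) was fitted to the 8596 genes over the floor on 1 array or more, with Benjamini-Hochberg adjustment over these genes and a threshold of 0.05. The step was tested on simulated data with independent noise and an equal genotype difference in both subsets. That test does not cover genes whose difference varies between the subsets. In the fit the subsets count as independent samples, but the labels leave it unsaid whether both came from the same mice. Other steps used pandas 2.3.3 and numpy 2.4.6 in Python 3.11.15, with matplotlib 3.10.9 for plots.

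The members and lists were chosen with earlier results of these data known. By rule, the text gives every array's value for members at least 2-fold apart or called, summarises the others by role, names further pathway genes that limma called or that had one of the 3 largest folds each way in a subset with both arrays above the floor, and always gives Gfi1, Cd44, Cd4, Cd8a and Cd8b1. Values on all arrays for further members were added after they were seen. Alternatives were the floor, a pseudocount, the scaling, the choice of probe set, the fold and the settings of limma.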

Additional observations from a re-analysis of the deposited data

How the results depend on the processing

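In CD4 cells 2 genes were at least 2-fold apart as reported, beside 1.95% of all genes higher and 5.09% lower. With arrays centred on their medians there were 4, 3 higher and 1 lower, beside 5.16% and 3.58% of all genes. Txk (1.16) and Trat1 (1.03) joined there. With the mean of all probe sets there were 3 (Lcp2 at -1.03 joined), beside 6.27% of all genes. At 1.5-fold there were 7, beside 19.8% of all genes. In CD8 cells it was 1 as reported, 2 with a pseudocount of 16 and no floor, and 6 at 1.5-fold (10.6% of all genes). The gene that joined with the pseudocount was Plcg1 (-1.57), which is below the floor on all arrays. It joined under the wildtype label for CD8 against CD4 cells too, 5 against 4, beside 16.7% of the 12393 genes with the pseudocount. At 1.5-fold the count for CD8 against CD4 cells was 7 under the wildtype label, against 4, and 3 under the knockout label, against 0 (16.6% and 10.8% of all genes). Centring on medians moved the median log2 difference of all genes to 0.32 in CD4 and 0.21 in CD8 cells, so values under it are to be read against that shift. For the genotype label limma called 0 of the genes as reported and 6 with a floor at the 25th percentile, 3 with the pseudocount and 3 in the fit to genes over the floor everywhere. The calls over all genes went from 47 to 505, 327 and 201 under these settings. For the subset 3, 2 and 2 of the genes were called, against 0, as the calls over all genes went from 21 to 241, 145 and 106. The other 7 limma settings called 0 of the genes for either term. Over all genes these settings called between 0 and 44 for the genotype label and between 0 and 20 for the subset. With so few calls over all genes, a count of 0 says little about the genes described here. For the 25 genes above the floor, 347 of 350 single values under the alternatives stayed on their side of 2-fold. Of these 350 values, 3 passed it and 0 reversed among those past it. Plcg1 was left out of these values. In CD4 cells 9 and in CD8 cells 8 of the 25 genes changed sign under some alternative, each of them within 1.5-fold as reported.

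No paired analysis was possible by replicate number, because each group has 1 array and the labels number none. With subset as a further term, the genotype-label difference of limma is the mean of the differences in CD4 and in CD8 cells. With 1 array a group, no array was left out.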
